A study of Mus musculus with 8 samples.

Results

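The kinesins are the motor proteins that walk along microtubules or take them apart. Here they were followed in mouse bone mesenchymal stem cells (MSCs, stromal cells that can form bone, fat and cartilage) kept at 2% O2 (hypoxia) or shifted to 21% O2 (normoxia). Their genes were found by symbol: a gene was a member if its name was Kif and a number, with or without a letter from a to c, or Kifc and a number. This gave 41 genes of the 53465 identifiers in the count table. They were divided by textbook role into 15 transport kinesins (Kif1a, Kif1b, Kif1c, Kif3a, Kif3b, Kif3c, Kif5a, Kif5b, Kif5c, Kif13a, Kif13b, Kif16b, Kif17, Kifc2 and Kifc3), 12 mitotic kinesins (Kif2c, Kif4, Kif11, Kif14, Kif15, Kif18a, Kif18b, Kif20a, Kif20b, Kif22, Kif23 and Kifc1) and 14 other kinesins (Kif2a, Kif2b, Kif6, Kif7, Kif9, Kif12, Kif19a, Kif21a, Kif21b, Kif24, Kif26a, Kif26b, Kif27 and Kif28). The family itself was picked from earlier results of this oxygen comparison, so the members' differences between the oxygen levels are given as a description.

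RNA-seq measured 8 samples, 4 of each oxygen level, numbered 1 to 4 in both groups. The cells came from bone chips of the hind limbs of male wild-type C57BL/6N mice aged 3-5 months, with no transgene and no drug in either group. Per the study's methods the MSCs were grown out at 2% O2, sorted as CD45-/Ter-119-/Sca-1+/CD140a+ cells, and divided between 2% O2 and 21% O2 for 7 days in α-MEM medium at 5% CO2. The labels place a sort of purified MSCs on day 12 of culture. Both groups had therefore been grown at 2% O2 before the split, and hypoxia is the starting condition. All fold changes are normoxia over hypoxia, and all log2 changes are normoxia minus hypoxia.

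Transport kinesins carry vesicles, mitochondria, mRNA and ciliary cargo along microtubules, usually away from the cell centre. Kinesin-1 (the Kif5 genes) and heterotrimeric kinesin-2 (Kif3a with Kif3b or Kif3c) are the general carriers of most cell types, and kinesin-3 (Kif1, Kif13 and Kif16b) moves vesicles and endosomes. Mitotic kinesins are made mainly in dividing cells, where they push spindle poles apart, align chromosomes and complete cytokinesis. Several of the remaining kinesins have roles other than carrying cargo. Kif21a and Kif21b restrain microtubule growth, Kif2a and Kif24 depolymerise microtubules, and Kif7 acts in Hedgehog signalling at the tip of the primary cilium.

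Mitotic kinesins shared a promoter feature that the symbol rule did not use. RefSeq promoter windows (250 bases before to 50 after the transcription start, GRCm38.p6) were at hand for 32 of the 41 members. The hexamer TTTGAA, the core of the cell cycle genes homology region of many genes that are repressed outside division, was searched on both strands. A gene was counted if any of its windows held the motif. The hexamer was found in 10 of 11 mitotic kinesins with a window (90.9%), 1 of 10 transport kinesins (10%) and 2 of 11 other kinesins (18.2%). The share was 20.2% of all 27025 genes with a window and 14.4% of the 10489 tested genes with a window. The mitotic kinesin without it was Kif18a, the transport kinesin with it was Kif1a, and the other kinesins with it were Kif26b and Kif27. CCAAT, also searched on both strands, was found in 7 of 11 mitotic kinesins (63.6%), 3 of 10 transport kinesins (30%) and 5 of 11 other kinesins (45.5%). Its share was 41.1% of all genes with a window and 42.9% of the tested ones. ACGTG, 1 form of the core of the hypoxia response element, was found in 2 mitotic (18.2%), 2 transport (20%) and 2 other kinesins (18.2%). Other forms of that core were not searched and are not marked below. Its share was 21.8% of all genes with a window and 28.9% of the tested ones. No motif contains another, and a gene with a motif on both strands was counted once. A match describes the sequence without showing that a factor binds there. The following stretches, written 5′ to 3′ on the strand of the gene, run from 100 bases before the RefSeq start (200 for Kif21a) to 30 bases after it. They are shown because Kif20b, Kif11 and Kif4 were the mitotic kinesins with the largest increases among those that have the hexamer, and Kif21a had the largest increase of the family. Capitals mark these motifs or their reverse complements.
Kif20b, chr19:34922258-34922387, plus strand: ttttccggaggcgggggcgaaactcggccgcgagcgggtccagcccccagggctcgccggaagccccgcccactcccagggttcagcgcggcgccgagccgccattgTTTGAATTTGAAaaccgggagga
Kif11, chr19:37376282-37376411, plus strand: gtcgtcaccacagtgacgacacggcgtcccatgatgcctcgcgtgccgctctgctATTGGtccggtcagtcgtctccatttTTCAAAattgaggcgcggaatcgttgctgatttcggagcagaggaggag
Kif4, chrX:100625965-100626094, plus strand: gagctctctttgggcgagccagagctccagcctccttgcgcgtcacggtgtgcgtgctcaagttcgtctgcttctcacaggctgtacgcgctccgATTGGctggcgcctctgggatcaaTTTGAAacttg
Kif21a, chr15:91049922-91050151, minus strand: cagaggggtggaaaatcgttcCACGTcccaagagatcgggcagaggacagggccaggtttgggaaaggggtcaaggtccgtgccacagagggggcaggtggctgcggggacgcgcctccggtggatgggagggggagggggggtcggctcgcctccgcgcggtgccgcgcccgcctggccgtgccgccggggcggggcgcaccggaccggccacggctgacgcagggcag
Kif20b carried the hexamer in 2 adjacent copies, 8 and 14 bases after the start. In Kif11 the reverse complement stood 19 bases before the start and a reverse CCAAT box 45 bases before it, and in Kif4 the hexamer stood 20 bases after the start with a reverse CCAAT box 5 bases before it. The Kif21a stretch held neither the hexamer nor a CCAAT box, and held 1 ACGTG on the reverse strand, 179 bases before the start. Among the mitotic kinesins not shown, the only hexamer of Kif14 stood 228 bases before the start and that of Kif2c 103 bases before it.

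The libraries held 12898291 to 13433824 counts, except hypoxia replicate 1 with 25132141. All 6 MSC markers (among them Ly6a, which encodes Sca-1, and Pdgfra, which encodes CD140a) were detected, with a summed level of 1460 to 1735 CPM (counts scaled to a common library size) in hypoxia and 1335 to 1571 in normoxia. All 5 blood and macrophage markers were detected as well, at 443 to 861 CPM in hypoxia and 558 to 1032 CPM in normoxia, although the sort removed CD45+ cells. Within pairs the blood and macrophage sum was higher in normoxia in 4 of 4 and the MSC sum lower in 4 of 4. The sums weigh abundant genes most, and single markers went both ways. Lyz2, a macrophage lysozyme with 4244 to 9578 counts per sample, rose (log2 change 0.56). Csf1r, the macrophage growth factor receptor, was called lower with the block (-0.59). Adgre1, Cd14 and Ptprc had log2 changes of -0.11, -0.26 and 0.081. Of the MSC markers, Nt5e and Pdgfra had 0.585 and 0.24, and Eng, Ly6a, Pdgfrb and Thy1 had -0.27, -0.14, -0.15 and -0.41. The part of these other cells in the kinesin differences was not tested. The endothelial markers summed to at most 0.859 CPM.

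Kif1c, a carrier of vesicles and mRNA that is prominent in migrating mesenchymal cells, was the most abundant kinesin. Levels were compared between genes as FPKM, the TMM-scaled CPM divided by the length of all exons in kilobases. Kif1c stood at 46.2 ± 2.18 FPKM in hypoxia and 48.3 ± 2.49 FPKM in normoxia (SD, n = 4), more than 3 times the next gene in hypoxia. Kif5b, the ubiquitous kinesin-1 heavy chain, followed with 14.3 ± 2.08 FPKM in hypoxia and 24.9 ± 0.714 FPKM in normoxia. Kif1b came next with 8.47 ± 0.787 and 10.3 ± 0.483 FPKM, and Kif3a after it with 6.84 ± 0.271 and 7.60 ± 0.257 FPKM. These 4 carriers did not share a value in either group, whereas the next genes lay within each other's spread in hypoxia: Kifc1 (6.33 ± 1.80 FPKM), Kif2a (5.47 ± 0.768), Kif3b (5.12 ± 0.0821), Kif13a (5.01 ± 0.564) and Kif20a (4.65 ± 1.65).

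**Figure D1:**
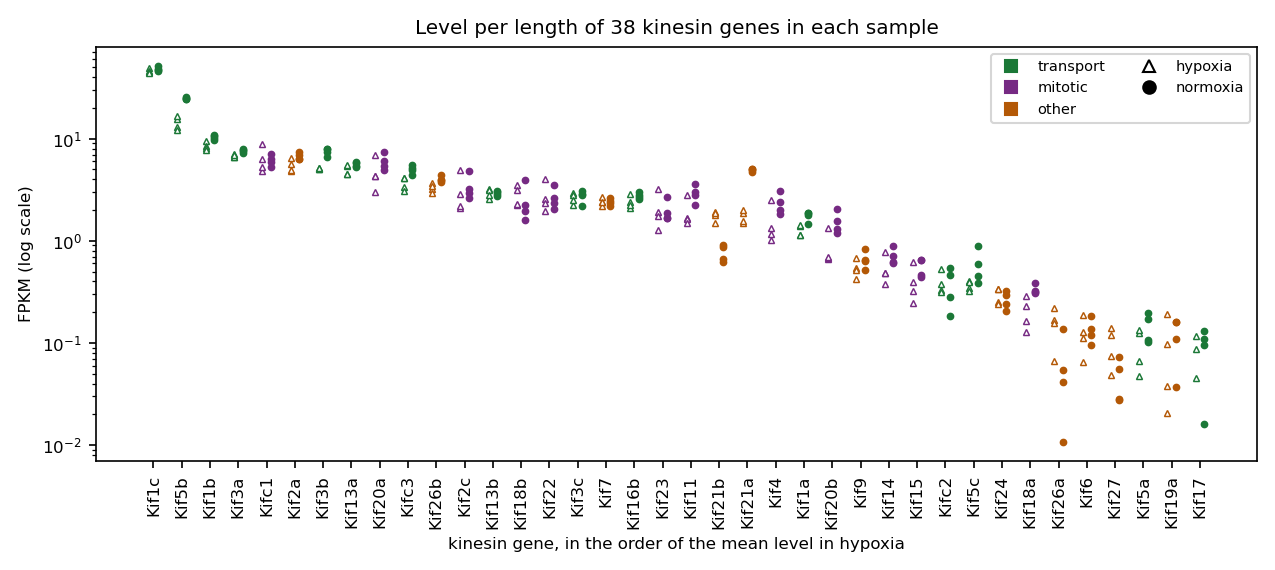
Level of the 38 tested kinesin genes in FPKM (vertical log axis), each column a gene in the order of its mean level in hypoxia, with open triangles for the 4 hypoxia samples and filled circles for the 4 normoxia samples, coloured by role. Kif1c stands alone near 46.2 FPKM, and Kif21a and Kif21b sit side by side in hypoxia at 1.73 and 1.77 FPKM but apart in normoxia at 4.94 and 0.763 FPKM.

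Transport kinesins made up most of the family's summed level at both oxygen levels, 70.1 ± 3.70% in hypoxia and 70.3 ± 1.98% in normoxia (SD, n = 4). Mitotic kinesins made up 18.6 ± 4.42% and 17.9 ± 2.71%, and other kinesins 11.2 ± 0.827% and 11.8 ± 0.807%. The shares of the roles therefore overlapped between the groups, while single genes moved within them. The share of Kif1c was 32.5 ± 1.43% in hypoxia and 28.1 ± 0.709% in normoxia, and that of Kif5b was 10.02 ± 1.18% and 14.5 ± 0.400%. Summed over the 41 genes, the level was 142.7 ± 13.2 FPKM in hypoxia and 171.6 ± 8.68 FPKM in normoxia.

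Of the 41 kinesins, 38 had enough counts to be tested. The other 3 were Kif2b, a spindle depolymerase, with 0 counts in every sample, and Kif12 and Kif28, with at most 1 count in any sample. In the limma-trend fit across all 14369 tested genes (adjusted p below 0.05), 11 kinesins were higher in normoxia (28.9% of those tested, where 18% of all genes were called higher) and 1 was lower (2.63%, where 16.5% of all genes were). In either direction this was 12 of 38 (31.6%), against 34.6% of all genes. The samples with the same number were taken as pairs of 1 divided population. The sample titles do not state this pairing, which rests on the study's division of sorted cells and on correlations between these samples. With the replicate number as a block, 17 kinesins were called higher (44.7%, against 23.3% of all genes) and 2 lower (5.26%, against 22.7%), together 19 (50.0%, against 46%). Blocked and with a correction for GC content and transcript length, 16 were called higher (42.1%, against 21.7%) and 2 lower (5.26%, against 21.5%), together 18 (47.4%, against 43.2%). The hypoxia and normoxia values did not overlap for 10 of 38 kinesins (26.3%), 9 of them higher in normoxia, against 32.6% of all genes. In the pairs, 18 of 38 kinesins were higher in normoxia in 4 of 4 pairs, against 27.7% of all tested genes. The number lower in 4 of 4 pairs was 3 of 38, against 26.8% of all tested genes. The median log2 change was 0.29 for transport kinesins, 0.42 for mitotic kinesins and 0.14 for other kinesins, beside 0.0049 over all tested genes. Scaling by library size alone would raise that last median to 0.089 and call 3611 genes higher and 1575 lower, among them 17 kinesins higher and 1 lower. Left-out single libraries moved the 12 calls to 17 without hypoxia replicate 1 and to 8 without hypoxia replicate 4. Over all genes the calls moved from 4970 of 14369 to 5423 of 14616 and to 4004 of 14601 in the same fits.

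**Figure D2:**
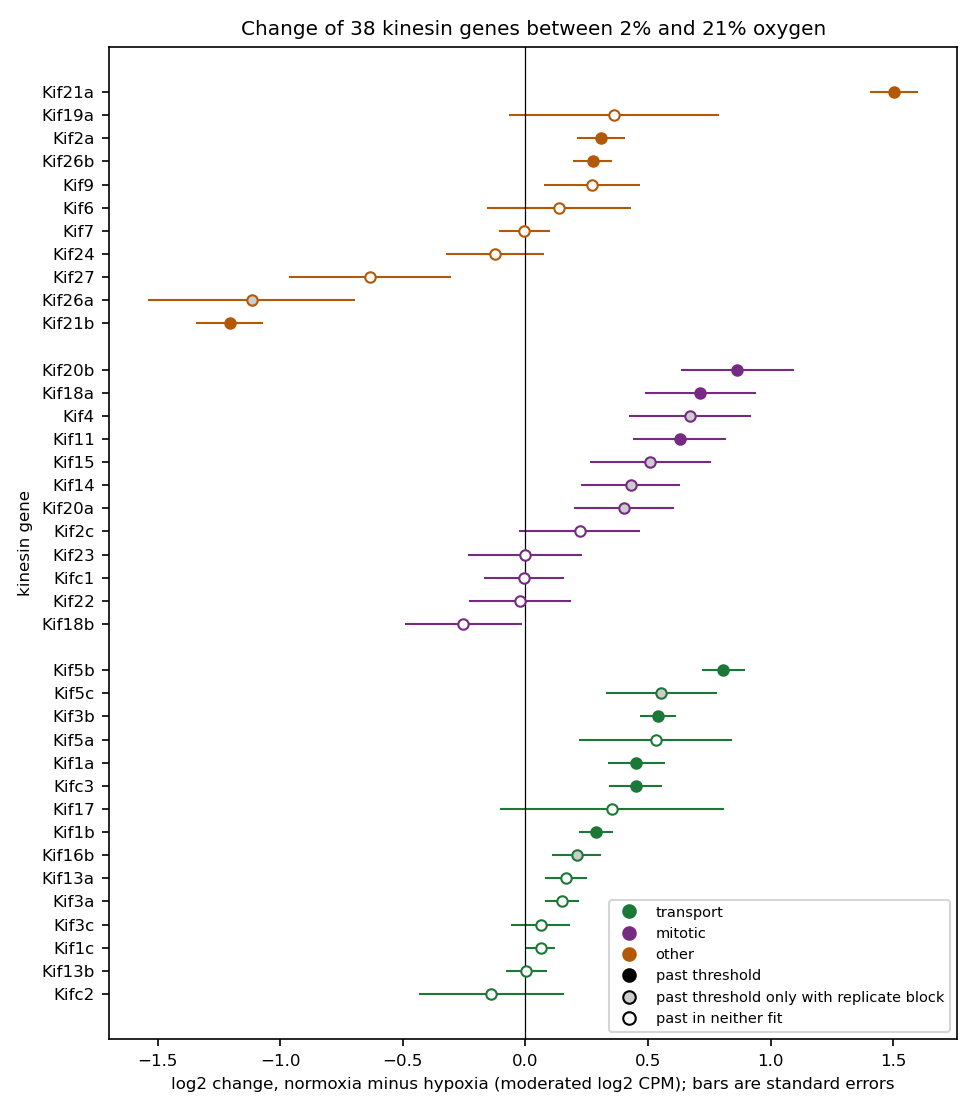
Log2 change (normoxia minus hypoxia, horizontal axis) of the 38 tested kinesin genes, grouped by role, with bars of 1 standard error; filled points pass the threshold of the limma-trend fit, grey points pass it only with the replicate block, and open points pass it in neither fit. Kif21a at 1.5 and Kif21b at -1.21 are the extremes, and no transport or mitotic kinesin passes the threshold below 0.

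Among the transport kinesins 5 of 15 rose in normoxia (33.3%, where 18% of all genes were called higher): Kif5b, Kif3b, Kif1a, Kifc3 and Kif1b. No transport kinesin fell in the limma-trend fit, nor did any have an unadjusted p below 0.05 in that direction, and edgeR, DESeq2 and limma-voom also called 0 lower. The count called higher was 5 by each of these tools. Blocked by replicate it was 7 (46.7%, against 23.3% of all genes), adding Kif5c and Kif16b. Correcting GC content and length as well made it 8 (53.3%, against 21.7%), with Kif1c and Kif13a in and Kif16b out. Scaled by library size alone it was 10, where 3611 of 14369 genes were called higher.

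Kif5b showed the largest change of the carriers. It measured 123, 133, 103 and 97.5 CPM in hypoxia replicates 1 to 4 and 206, 194, 200 and 194 CPM in normoxia replicates 1 to 4. The normoxia values lay close together and above every hypoxia value, and the fold change was 1.75 (log2 change 0.81, SE 0.0884). After the GC and length correction the log2 change was 0.59. The other kinesin-1 heavy chains, which are made mainly by neurons, were scarce: Kif5c had 30 to 88 counts per sample and Kif5a 6 to 19. The log2 change of Kif5c was 0.56 (SE 0.228), with an adjusted p of 0.0787 in the limma-trend fit and 0.0128 with the block (0.71, and past the threshold, without normoxia replicate 1), and that of Kif5a was 0.53 (SE 0.313) with neither fit past the threshold. Neuronal marker genes (Rbfox3, Snap25 and Syp) summed to 0.0418 to 0.0802 CPM in hypoxia and 0.0754 to 0.361 CPM in normoxia, with at least 1 of the 3 detected per sample.

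Kif3b, a motor subunit of kinesin-2 that drives transport into the primary cilium (chr2:153291413-153333390), was even among the hypoxia samples. It measured 29.3, 28.7, 28.3 and 29.1 CPM in hypoxia and 37.6, 41.6, 44.5 and 45.1 CPM in normoxia. Every normoxia value exceeded every hypoxia value, with a fold change of 1.46 (log2 change 0.54, SE 0.0727). Its partner Kif3a had a log2 change of 0.15 (SE 0.0695), did not overlap between the groups either, and did not pass the threshold. The alternative partner Kif3c had a log2 change of 0.062 (SE 0.119). In FPKM, Kif3b lay below Kif3a in hypoxia (5.12 ± 0.0821 against 6.84 ± 0.271) and level with it in normoxia (7.49 ± 0.609 against 7.60 ± 0.257).

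In the kinesin-3 group the changes were small beside the levels. Kif1b, which carries mitochondria and vesicles, measured 168, 149, 144 and 136 CPM in hypoxia and 191, 171, 179 and 186 CPM in normoxia. The groups did not overlap, although hypoxia replicate 1 came close to normoxia replicate 2, and the fold change was 1.22 (log2 change 0.29, SE 0.0696). Kif1c measured 359, 335, 328 and 323 CPM in hypoxia and 377, 346, 347 and 334 CPM in normoxia. It was higher in normoxia in 4 of 4 pairs by 0.048 to 0.080 on the log2 scale, with overlapping groups and a log2 change of 0.062 (SE 0.0584), and passed the threshold in the corrected and blocked fit, where the log2 change was 0.16. Kif1a, known for carrying synaptic vesicle precursors, rose 1.37-fold from 11.9 ± 1.47 to 16.4 ± 1.78 CPM (SD, n = 4), with a log2 change of 0.45 (SE 0.116). Kif13a and Kif13b, vesicle carriers, had log2 changes of 0.17 (SE 0.0856) and 0.0044 (SE 0.0819). Kif16b, an early endosome motor, had a log2 change of 0.21 (SE 0.0996), with an adjusted p of 0.123 in the limma-trend fit and 0.0481 with the block, and it passed the threshold without hypoxia replicate 2 (log2 change 0.30).

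Of the C-terminal kinesins, which move toward the cell centre, Kifc3 rose and Kifc2 did not. Kifc3 (chr8:95099828-95202812) measured 21.7, 17.97, 21.8 and 16.4 CPM in hypoxia and 29.2, 26.2, 23.4 and 27.5 CPM in normoxia. The groups were close but did not overlap, with a fold change of 1.37 (log2 change 0.45, SE 0.109). Kifc2 had 10 to 31 counts per sample and a log2 change of -0.14 (SE 0.296), and Kif17, a motor of dendrites and cilia, had 0 to 8 counts and a log2 change of 0.35 (SE 0.459).

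Among the mitotic kinesins 3 of 12 rose in normoxia in the limma-trend fit (25%, against 18% of all genes): Kif20b, Kif18a and Kif11. None fell, none had an unadjusted p below 0.05 in that direction, and edgeR, DESeq2 and limma-voom called 0 lower. The number called higher was 3 with edgeR, 2 with DESeq2 and 1 with limma-voom. With the replicate block 7 of 12 were called higher (58.3%, against 23.3% of all genes), adding Kif4, Kif14, Kif15 and Kif20a. Once GC content and length were also corrected, 6 were called higher (50%, against 21.7%). Without the block, the GC and length correction left 0, where it called 2173 of 14353 genes higher. The count also turned on single libraries: it was 7 without hypoxia replicate 1, 2 without hypoxia replicate 2, normoxia replicate 2 or normoxia replicate 3, and 1 without hypoxia replicate 3, hypoxia replicate 4 or normoxia replicate 4. Without normoxia replicate 1 it was 1 higher and 1 lower. Leaving out both samples numbered 1 gave 7. The calls over all genes moved as well. With every sample 2592 of 14369 genes were called higher, against 2853 of 14616 without hypoxia replicate 1. Without both samples numbered 1 it was 2527 of 14470, and the other single-library fits called 2019 to 2488 genes higher.

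Replicate 1 had more of these RNAs than the other replicates in both groups. The mean log2 level of the 12 mitotic kinesins, relative to the mean of all 8 samples, was 0.46, -0.45, -0.25 and -0.45 in hypoxia replicates 1 to 4 and 0.57, -0.083, 0.091 and 0.12 in normoxia replicates 1 to 4. Replicate 1 was the highest of its group for 12 of 12 mitotic kinesins in hypoxia and for 12 of 12 in normoxia. Within the pairs the mean level was higher in normoxia in 4 of 4, by 0.11, 0.37, 0.34 and 0.57. The distance between replicate 1 and the rest of its group thus exceeded the mean difference between the oxygen levels, which were at -0.17 ± 0.432 and 0.17 ± 0.278 (SD, n = 4). In bulk RNA, a different share of dividing cells and a different level of these RNAs per dividing cell cannot be told apart.

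The 24 other mitosis genes, such as Mki67, Ccnb1 and Aurkb, were also highest in replicate 1, for 24 of 24 genes in hypoxia and 24 of 24 in normoxia. Their mean level differed within pairs by -0.079, 0.21, -0.00042 and 0.30, so that normoxia was higher in 2 of 4 pairs. The limma-trend fit called 0 of them in either direction, with 2 at an unadjusted p below 0.05, both higher in normoxia, and edgeR, DESeq2 and limma-voom called 0 as well. With the block 8 were called higher and 1 lower, where 23.3% and 22.7% of all genes were. Top2a and Anln had log2 changes of 0.51 and 0.58, and Plk1, a mitotic kinase, had a log2 change of -0.35. In the blocked and corrected fit 5 were called higher and 2 lower. Leaving out hypoxia replicate 1 gave 9 called higher, and leaving out both samples numbered 1 gave 6. Over all genes these fits called 2853 of 14616 and 2527 of 14470 higher. Their median log2 change was 0.13, and it was 0.29 without hypoxia replicate 1, -0.0095 without hypoxia replicate 2 and -0.010 without normoxia replicate 1. For 20 DNA replication genes, replicate 1 was the highest of its group for 15 genes in hypoxia and 16 in normoxia, the median log2 change was 0.026, and 1 gene, the ribonucleotide reductase subunit Rrm2, rose (log2 change 0.63, SE 0.215). That call was lost with edgeR, DESeq2, no low-count filter and the GC and length correction, and without hypoxia replicate 2, 3 or 4 or normoxia replicate 1, each of which left 0 replication genes called. With the block 3 were called higher, and in the blocked and corrected fit 1 higher and 3 lower (Mcm6, Rfc4 and Tyms). Whether a difference in the share of dividing cells accompanied the mitotic kinesins was not tested.

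**Figure D3:**
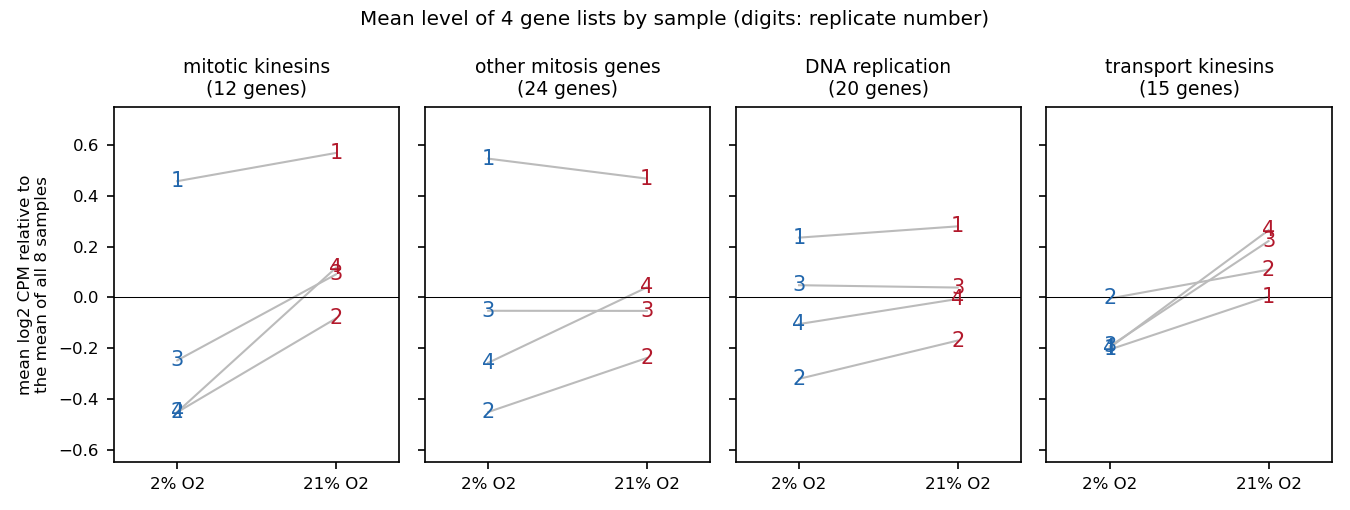
Mean log2 CPM of 4 gene lists in each sample, relative to the mean of all 8 samples (vertical axis), at 2% and 21% O2, with digits for the replicate number and lines joining samples of the same number. Replicate 1 sits above the others for mitotic kinesins (0.46 and 0.57) and for other mitosis genes (0.55 and 0.47), and transport kinesins are higher at 21% O2 in all 4 pairs.

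Kif20b had the largest log2 change of the mitotic group. Kif20b (chr19:34922361-34975745), which acts late in cytokinesis, measured 9.36, 4.65, 4.68 and 4.78 CPM in hypoxia and 14.2, 9.004, 11.0 and 8.22 CPM in normoxia. The groups overlapped through hypoxia replicate 1, which stood far above the other hypoxia samples, and each normoxia sample was above its own pair. The fold change was 1.82 (log2 change 0.87, SE 0.230), and 0.63 on the log2 scale after the GC and length correction, where the adjusted p was 0.0614 in the limma-trend fit without the block and 0.000111 with it. Kif11 (chr19:37376403-37421859), the motor that drives spindle poles apart, measured 20.9, 12.6, 12.1 and 11.1 CPM in hypoxia and 27.0, 16.6, 20.8 and 22.4 CPM in normoxia. Hypoxia replicate 1 again lay inside the normoxia range, and Kif11 had a fold change of 1.55 (log2 change 0.63, SE 0.190). The call of Kif11 was lost without hypoxia replicate 2, 3 or 4 (log2 changes 0.59, 0.57 and 0.53) and without normoxia replicate 1 or 4 (0.51 and 0.60).

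Kif18a (chr2:109280738-109341747), which dampens chromosome movements at the metaphase plate, measured 2.84, 2.25, 1.25 and 1.62 CPM in hypoxia and 3.79, 3.17, 3.10 and 3.02 CPM in normoxia. It was the mitotic kinesin whose groups did not overlap, on 16 to 68 counts per sample, with a fold change of 1.64 (log2 change 0.71, SE 0.227). Its call was lost without hypoxia replicate 3 or 4 (log2 changes 0.54 and 0.64) and without any 1 of the normoxia replicates 1 to 4 (0.63, 0.72, 0.73 and 0.74). Kif4 (chrX:100625737-100727214), a chromosome-bound motor of the spindle midzone, measured 14.0, 6.42, 7.34 and 5.62 CPM in hypoxia and 16.9, 10.01, 11.1 and 13.2 CPM in normoxia. It was higher in 4 of 4 pairs with overlapping groups, and its log2 change of 0.67 (SE 0.247) had an adjusted p of 0.0528 in the limma-trend fit and 0.000117 with the block. Kif14, a cytokinesis motor, measured 8.03, 4.97, 5.00 and 3.93 CPM in hypoxia and 9.13, 6.27, 6.42 and 7.31 CPM in normoxia. Replicate 1 again topped both groups, and the log2 change of 0.43 (SE 0.201) had an adjusted p of 0.119 in the limma-trend fit and 0.0131 with the block. Kif15, a spindle motor that backs up Kif11, and Kif20a, a midzone motor, were likewise higher in 4 of 4 pairs, with log2 changes of 0.51 (SE 0.247) and 0.40 (SE 0.204). The call of Kif15 with the block was lost once GC and length were corrected (adjusted p = 0.134 in limma-trend). Without hypoxia replicate 1 the unblocked fit called Kif4, Kif14, Kif15 and Kif20a as well, with log2 changes of 0.94, 0.62, 0.74 and 0.61.

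The other 5 mitotic kinesins did not pass the threshold in the limma-trend fit or with the block. Kifc1, a minus-end motor that focuses spindle poles and the most abundant of the group, measured 30.2, 16.4, 21.7 and 18.2 CPM in hypoxia and 24.3, 20.1, 18.2 and 21.6 CPM in normoxia. It was higher in normoxia in 2 pairs and lower in 2, with a log2 change of -0.0057 (SE 0.163). Kifc5b, a near-identical copy outside the family's symbol rule, had 71 to 241 counts and a log2 change of -0.0093, and reads shared by both genes make each level uncertain. Kif23, a subunit of centralspindlin, Kif22, a chromosome-bound motor, and Kif2c, a centromeric depolymerase, had log2 changes of -0.0012 (SE 0.233), -0.021 (SE 0.208) and 0.22 (SE 0.246). Kif18b, an astral microtubule motor, was lower in 3 of 4 pairs, with a log2 change of -0.25 (SE 0.240). Kif18b was also the gene called lower when normoxia replicate 1 was left out (log2 change -0.52). Kif20a lies against Cdc23 on the opposite strand, Kif18a against Mettl15 and Kif4 overlaps Pdzd11, and since the strand setting of the counting is not stated, reads of such neighbours could not be separated.

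**Figure D4:**
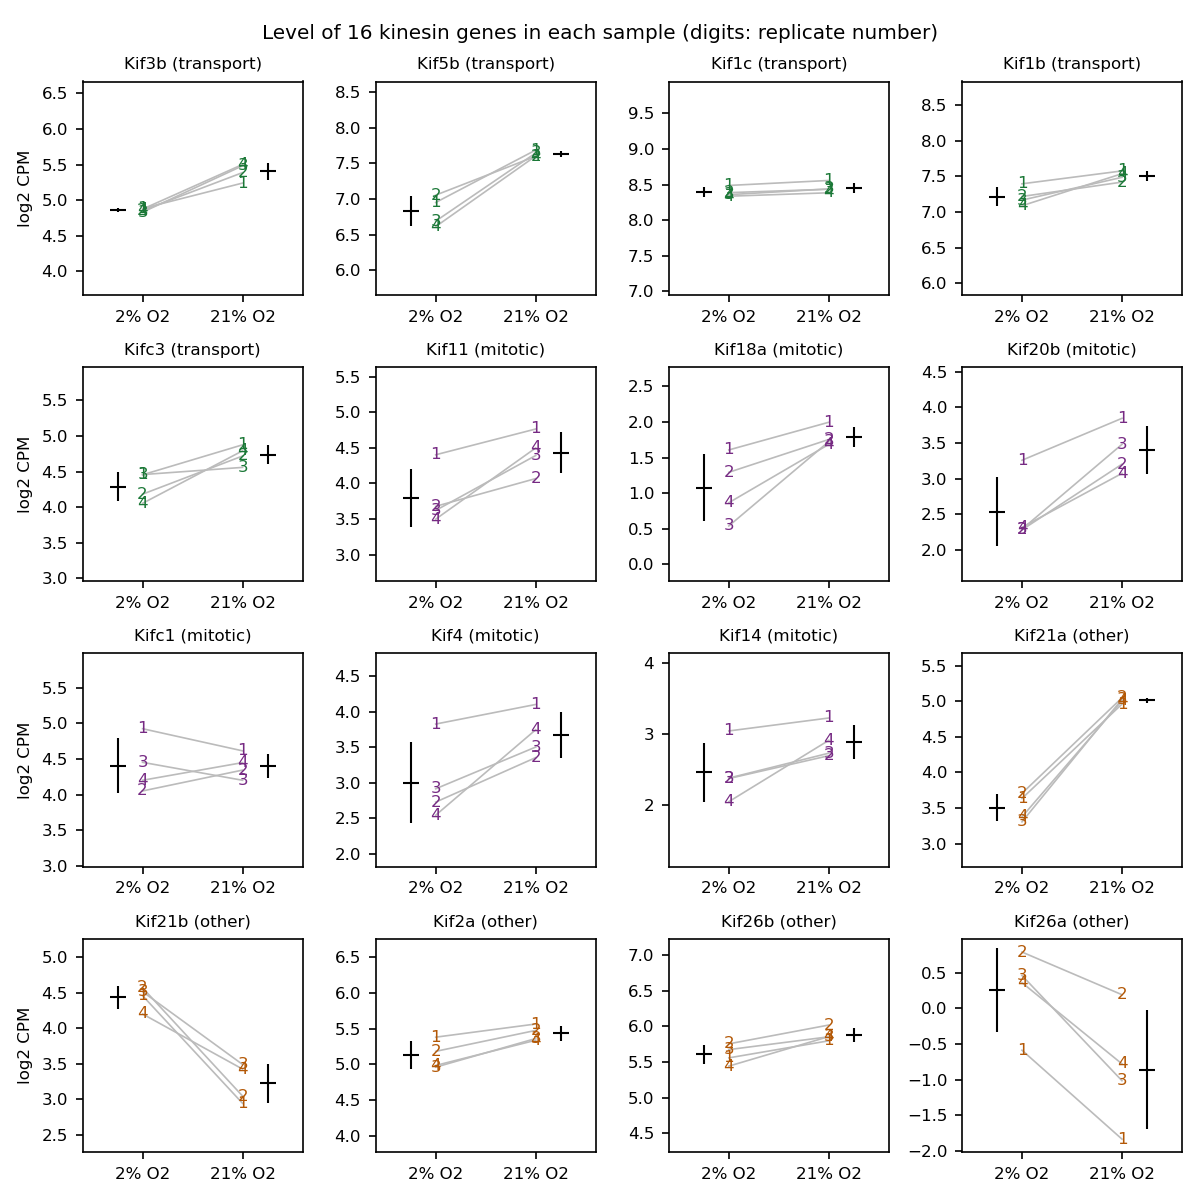
Log2 CPM (vertical axis, the same span in every panel) of 16 kinesin genes at 2% and 21% O2, with digits for the replicate number, lines joining samples of the same number, and crosses for the mean ± SD of each group (n = 4). In Kif21a and Kif5b the 4 normoxia values bunch above all hypoxia values, in Kif21b every line falls, and in the mitotic genes replicate 1 is on top of both groups.

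Kif21a and Kif21b, the paralogs that pause microtubule growth, moved in opposite directions and had the largest log2 changes in the family on the moderated scale, which understates genes with few counts. By mean CPM the ratio was larger for the scarce and uncalled Kif26a (1.06 CPM in hypoxia and 0.419 in normoxia) than for Kif21b (21.5 and 9.29 CPM). Kif21a (chr15:90933276-91049948) measured 12.2, 12.8, 9.68 and 10.2 CPM in hypoxia and 30.9, 32.9, 32.4 and 31.9 CPM in normoxia, with a fold change of 2.84 (log2 change 1.5, SE 0.0997). Kif21b (chr1:136131389-136177998) measured 21.8, 23.5, 22.6 and 18.2 CPM in hypoxia and 7.50, 8.07, 11.0 and 10.6 CPM in normoxia, with a fold change of 0.433 (log2 change -1.21, SE 0.137). Neither gene overlapped between the groups, and each moved the same way in 4 of 4 pairs, by 1.33 to 1.72 for Kif21a and by -1.52 to -0.77 for Kif21b on the log2 scale. Per length, the ratio of Kif21a to Kif21b was 1.05, 1.03, 0.804 and 1.05 in the hypoxia samples and 7.75, 7.66, 5.52 and 5.69 in the normoxia samples. By this measure the pair was near parity at 2% O2 and dominated by Kif21a at 21% O2. Parity depends on the length used, here all exons (6476 bases for Kif21a and 12184 for Kif21b). The longest transcripts have 6439 and 9254 bases, and using them would lower the ratio in both groups. Both changes kept their call in all 20 alternative fits, and after the GC and length correction they were 1.41 and -1.04. Both genes ranked together in the middle of the family in hypoxia (1.73 ± 0.237 FPKM for Kif21a and 1.77 ± 0.192 FPKM for Kif21b), whereas in normoxia they stood at 4.94 ± 0.130 and 0.763 ± 0.145 FPKM.

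Kif2a and Kif26b were the remaining members that rose. Kif2a, a kinesin-13 that depolymerises microtubules at spindle poles and in interphase, measured 41.5, 36.1, 30.9 and 31.4 CPM in hypoxia and 47.2, 44.3, 40.9 and 40.2 CPM in normoxia. The groups overlapped, since hypoxia replicate 1 lay among the normoxia samples, and the log2 change was 0.31 (SE 0.0970). After the GC and length correction it was 0.067 with the block, and the call was lost (adjusted p = 0.405 in limma-trend). It was also lost without hypoxia replicate 3 or 4 (log2 changes 0.25 and 0.26) and without normoxia replicate 1 or 2 (0.25 and 0.28). Kif26b, a kinesin without motor activity that takes part in adhesion and Wnt5a signalling of mesenchyme, measured 46.9, 53.8, 50.9 and 43.3 CPM in hypoxia and 55.5, 64.7, 57.7 and 57.8 CPM in normoxia. Its groups did not overlap, with hypoxia replicate 2 just under normoxia replicate 1, and the log2 change was 0.27 (SE 0.0789), or 0.41 after the correction. The call of Kif26b was lost without hypoxia replicate 4 or normoxia replicate 2 (0.22 in each).

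Its paralog Kif26a was nearly absent, with 1 to 19 counts per sample. It measured 0.460, 1.52, 1.17 and 1.08 CPM in hypoxia and 0.0743, 0.936, 0.289 and 0.377 CPM in normoxia. The normoxia value was the lower in each of the 4 pairs, the groups overlapped, and the log2 change of -1.12 (SE 0.423) had an adjusted p of 0.0590 in the limma-trend fit and 0.00319 with the block. It was called lower without hypoxia replicate 1 (log2 change -1.36) and without normoxia replicate 2 (-1.48). Kif7 had a log2 change of -0.0046 (SE 0.105), Kif24, a centriolar depolymerase, -0.12 (SE 0.200) and Kif9, of motile cilia, 0.27 (SE 0.197). Kif27, the paralog of Kif7, was lower in 4 of 4 pairs with a log2 change of -0.64 (SE 0.330) on 2 to 9 counts, Kif19a had 0.36 (SE 0.430) on 2 to 10 counts, and Kif6 had 0.14 (SE 0.293) on 5 to 16 counts. None of these 6 genes passed the threshold in either fit.

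The changes of the mitotic kinesins followed the GC content of their transcripts. Over all tested genes with a known transcript (n = 14353) the log2 change was lower at higher GC content, with a Spearman rho of -0.39 across genes, which are not independent replicates. Within the 12 mitotic kinesins rho was -0.83, within the 15 transport kinesins -0.30 and within the 11 other kinesins tested -0.37. Among the mitotic genes the AT-rich transcripts of Kif18a (38.2% GC), Kif20b (39.4%) and Kif11 (42.2%) had the largest increases besides Kif4, and the GC-rich transcripts of Kif18b (55.2%) and Kifc1 (57.0%) did not increase. After the GC and length correction fitted over all genes, with the block, rho was -0.66 within the mitotic kinesins, 0.15 within the transport kinesins and -0.15 within the other kinesins. The correlations share the 8 libraries and are given as a description. The 38 tested members had longer transcripts than most genes, with a median length of 5434 bases against 3258 bases over all tested genes, and a similar median GC content of 49.6% against 49.7%. In the same correction the log2 changes were 0.48 for Kif18a, 0.42 for Kif11, 0.60 for Kif4, 0.50 for Kif3b and 0.63 for Kifc3.

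**Figure D5:**
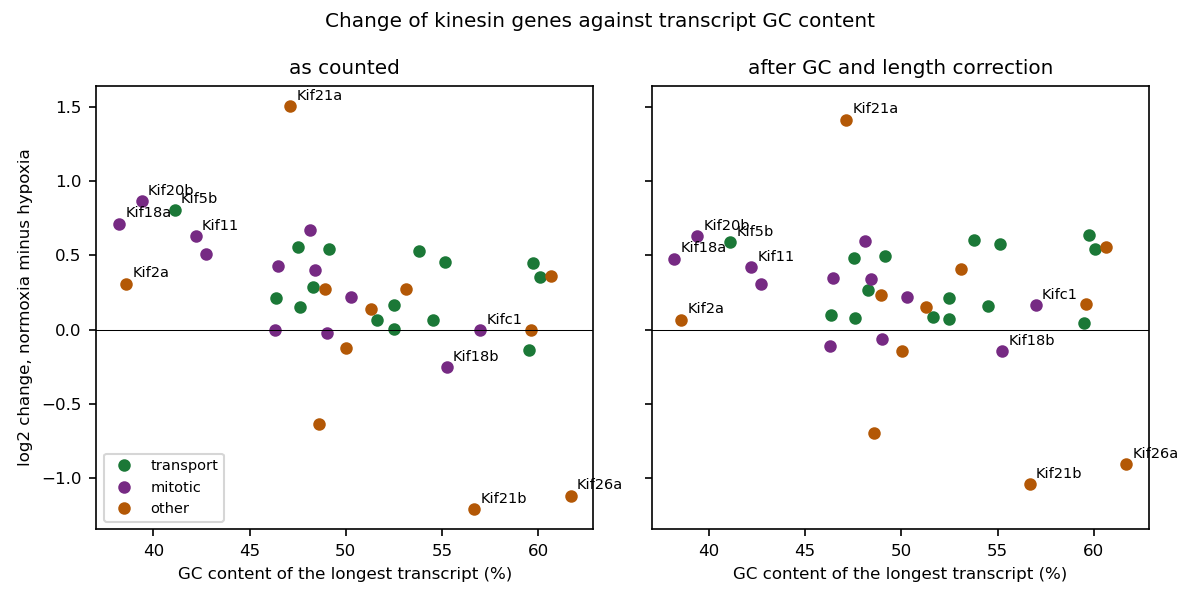
Log2 change (normoxia minus hypoxia, vertical axis) of the 38 tested kinesin genes against the GC content of their longest transcript in percent (horizontal axis), coloured by role, as counted on the left and after the GC and length correction on the right. The mitotic genes slope down from Kif20b at 39.4% GC to Kif18b at 55.2% GC in the left panel, and Kif2a moves from 0.31 to 0.067 in the right panel.

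The partners of the transport kinesins had more members called higher than lower. Of 22 tested light chains and cargo adaptors, 9 rose and 0 fell in the limma-trend fit, with 1 lower at an unadjusted p below 0.05 and 0 called lower by edgeR, DESeq2 and limma-voom, and with a median log2 change of 0.22. With the block 11 were called higher and 1 lower, and in the blocked and corrected fit 13 higher and 1 lower. The lower gene was Arl8b, a lysosomal adaptor of kinesin-1, with a log2 change of -0.14, or -0.33 once corrected. The genes that rose included Fez1, an adaptor of kinesin-1 (log2 change 0.58, SE 0.190), Ppfia1, a liprin that links kinesin-3 to cargo (0.48, SE 0.0862), Rhot1, the Miro protein that anchors kinesin to mitochondria (0.45, SE 0.0667), and Kidins220, a kinesin-1 cargo (0.38, SE 0.0734). The light chains Klc1 and Klc4, which join Kif5 heavy chains to cargo, rose by log2 changes of 0.31 and 0.27, and Klc2 and Klc3 had 0.20 and 0.23 without passing the threshold. Beside them, Kif5b itself had a log2 change of 0.81. Arl8b, Klc1, Klc2, Klc3 and Klc4 were named after their values were seen.

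Subunits of the opposing motor, cytoplasmic dynein with dynactin, were mixed. Of 23 genes 10 rose and 3 fell, with a median log2 change of 0.15. The light intermediate chains Dync1li2 and Dync1li1 rose by 0.48 and 0.40, the light chain Dynlt3 by 0.52 and the adaptor Bicd2 by 0.43, whereas the heavy chain Dync1h1, Dynll1 and Dynlrb1 fell, by log2 changes of -0.27, -0.27 and -0.19. These falls depended on the scaling and the libraries: 0 of the list were called lower with library size alone, against 11 higher, and 1 was called lower without hypoxia replicate 3 or 4 or normoxia replicate 2 or 3. In the blocked and corrected fit Dynlrb1 turned to 0.073, Dync1h1 stood at -0.12 and Dynll1 at -0.31. In intraflagellar transport, the ciliary traffic that Kif3a and Kif3b drive, 5 of 20 genes rose and 4 fell, with a median log2 change of -0.012. Ift74 rose by 0.92 (SE 0.133), Wdr35 by 0.45 and Ift20 by 0.42, and Ift172 had a log2 change of -0.46 (SE 0.0682). Of 11 tubulins, the building blocks of the track, 5 fell and 0 rose in the limma-trend fit, with 0 higher at an unadjusted p below 0.05 and 0 by edgeR, DESeq2 and limma-voom. Correcting GC content and length gave 1 higher and 3 lower, and adding the block gave 3 higher (Tubb2a 0.20, Tubb4b 0.27 and Tubg1 0.30) and 5 lower. The largest falls were Tubb5 (-0.44), Tubb2b (-0.43), Tuba1b (-0.40) and Tuba1a (-0.36), and tubulin genes have near-identical copies that can share reads. As background for each of these lists, the limma-trend fit called 18% of all genes higher and 16.5% lower (34.6% in either direction). These shares were 23.3% and 22.7% with the block, and 21.7% and 21.5% in the blocked and corrected fit.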

How the data were processed

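RNA-seq was done on 8 samples of sorted mouse bone MSCs, 4 per oxygen level, grouped by the labels. The authors aligned single-end reads to mm10 (GRCm38) with zUMIs and STAR, counted them per Ensembl gene with featureCounts, and deposited a table of raw counts (whole numbers, not normalized). Strand, intron and multi-mapping settings are not given in the sources used here. GENCODE M21 gave symbols to 53360 of 53465 identifiers, positions, exon lengths and GC content. No deposited column was left without a sample, and all counts fell on named gene rows.

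As in the study, genes were filtered with filterByExpr (minimum count 5) in edgeR 4.0.16 and tested with limma-trend (limma 3.58.1, R 4.3.3). The test followed TMM scaling and log2 CPM with a prior count of 3. These settings were chosen here, since the study's RNA-seq methods name no scaling or prior count. Adjusted p-values are Benjamini-Hochberg over 14369 genes, with a threshold of 0.05. The log2 scale understates changes of genes with few counts. Totals ran from 12898291 to 25132141 counts, and 3 counts in a library equal 0.125 to 0.241 CPM, a floor that covers counting error only.

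Deviations from group means correlated at 0.47, 0.28, 0.25 and 0.17 between samples of the same number, and the study divided a sorted population between the oxygen levels, so the number was added as a blocking factor in a fit set beside the unblocked one. Alternatives were edgeR's quasi-likelihood test, DESeq2 1.42.0, limma-voom, other scalings, filters and prior counts, splines (5 degrees of freedom) for GC content and length, leaving out samples, and other role groups. The fit was tested on simulated data. The members, their roles and all gene lists were chosen with earlier results of these data known. Values in every sample are given for members called with a log2 change of at least 0.5 in size, the most abundant member of each role and up to 2 further members per role with the lowest adjusted p, and up to 4 called genes with the largest changes are named in each pathway list. Sequences are RefSeq promoter windows of GRCm38.p6.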

Additional observations from a re-analysis of the deposited data

Results flagged for a closer look

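In the groups of 4 samples, 90 sets of values were searched for a sample whose gap to the nearest other sample took up most of the group's range, by Dixon's criterion at the 95% level. Chance would flag about 1 in 20 sets, or 4.5 here, and 3 were found. Hypoxia replicate 1 held 25132141 counts, where its 3 companions held 12929564 to 13219647. Kif20b stood at a log2 CPM of 3.26 in hypoxia replicate 1, against 2.28 to 2.32 in the others. The mean level of the transport kinesins was -0.0041 in hypoxia replicate 2, relative to the mean of all 8 samples, against -0.21 to -0.19 in the others, which makes the difference within pair 2 the smallest of the 4 for transport kinesins.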

How the results depend on the processing

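The number of kinesins called was 12 as reported and 19 with the replicate block, and 8 to 17 when single samples were left out. Over all genes the calls numbered 4970 as reported, 6610 with the block and 3838 to 5423 when single samples were left out. The 3 mitotic calls became 1 with limma-voom, 0 with the GC and length correction, 7 with the replicate block, 6 with that correction and the block, 7 without both samples numbered 1, and 1 to 7 when single samples were left out. The 5 transport calls became 10 with library size only, 8 with the correction and the block, and 5 to 6 when single samples were left out. Taking every non-mitotic kinesin as 1 larger group of 26 tested genes gave 9 calls, 8 higher and 1 lower. Other kinesins called numbered 2 to 5 when single samples were left out. Their median log2 change of 0.14 was -0.0021 without both samples numbered 1 and -0.049 to 0.32 when single samples were left out, beside 0.29 to 0.62 for mitotic and 0.15 to 0.30 for transport kinesins. The cause of these shifts was not tested. Kif1a, Kif1b, Kif3b, Kif5b, Kifc3, Kif21a and Kif21b kept their call in all 20 alternatives, whereas Kif18a lost it in 10, Kif11 in 7, Kif2a in 6, Kif26b in 2 and Kif20b in 1. Log2 changes near 0 that passed no threshold turned sign. These were Kif13b (-0.00507 with DESeq2, -0.0057 with DESeq2 size factors), Kif7 (0.00018 with limma-voom), and, with library size only, Kif22 (0.066), Kif23 (0.086), Kif7 (0.082) and Kifc1 (0.082). With the GC and length correction, with and without the block, they were Kif7 (0.17), Kifc1 (0.16) and Kifc2 (0.045). Without both samples numbered 1 they were Kif13b (-0.028), Kif22 (0.028), Kif23 (0.082), Kif6 (-0.021) and Kifc1 (0.089). When single samples were left out, the log2 change ran from -0.054 to 0.050 for Kif13b, -0.017 to 0.69 for Kif17, -0.18 to 0.18 for Kif22, -0.19 to 0.24 for Kif23, -0.013 to 0.15 for Kif3c, -0.065 to 0.32 for Kif6, -0.060 to 0.048 for Kif7, -0.12 to 0.17 for Kifc1 and -0.34 to 0.096 for Kifc2. Among the pathway lists, 0 other mitosis genes were called as reported, 2 with library size only, 9 with the block, 7 in the blocked and corrected fit and 0 to 9 when single samples were left out. For DNA replication the count of 1 ran from 0 to 4, the adaptors went from 9 to 14 and the tubulins from 5 to 8 in the blocked and corrected fit. Depth limits Kif5a, Kif6, Kif17, Kif19a, Kif26a and Kif27, which had at most 19 counts per sample. With 1 sample left out of a group, no arm had fewer than 3 samples.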
